A study of Mus musculus with 3 samples.

Results

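Nuclei that carry transcripts of recruited and lipid-associated macrophages were picked out of single-nucleus RNA sequencing of mouse liver. A nucleus was a member if it had at least 3 UMIs (unique molecular identifiers, each standing for 1 counted RNA molecule) summed over the 7 genes Lyz2, Gpnmb, Cd74, H2-Ab1, Ccr2, Itgax and Trem2, these being at least 0.1% of its UMIs. That sum also had to be at least as large as the sum over 6 genes taken as Kupffer cell genes, Clec4f, Cd5l, Adgre1, Timd4, Marco and Vsig4. At most 1 UMI of the B cell genes Ebf1, Pax5 and Bank1 and at most 2 UMIs of the endothelial genes Stab2 and Ptprb were allowed. The rule was met by 113 of 21456 kept nuclei, and kept nuclei were the barcodes, out of 21665, with at least 500 UMIs and at most 5% mitochondrial UMIs. Of the 113 members, 8 came from the SD library, 91 from the MASLD library and 14 from the Aza-TdC library. Members were chosen by the measured levels of these 7 and 6 genes, so those levels are a description and support nothing.

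All animals were male mice, C57BL/6 in the sample labels and C57BL/6N in the study's design text, aged 8 weeks when the study began. SD mice received a standard diet. MASLD mice received a diet made to produce MASLD, metabolic dysfunction-associated steatotic liver disease, with glucose and fructose in the drinking water, for 18 weeks. Aza-TdC mice received the same diet and sugar solution, and from week 14 to week 18 a daily oral gavage of 2 mg/kg Aza-TdC (5-aza-4′-thio-2′-deoxycytidine), a nucleoside analogue directed at the DNA methyltransferase DNMT1. No vehicle gavage is stated for SD or MASLD, so gavage and compound cannot be told apart. Each group was 1 library of nuclei from 120 mg of frozen liver, sorted on the DNA dye DAPI. How many animals a library stands for is not stated in the labels. No test between groups was possible. All intervals are 95% intervals that cover counting error only, not the spread between nuclei or between animals.

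Resident macrophages of the liver, the Kupffer cells, occupy the sinusoids and carry Clec4f, Cd5l and Timd4. When they are lost, monocytes that enter from the blood through the chemokine receptor CCR2 can replace them. In fatty liver some of the recruited cells take on a lipid-associated program with GPNMB, the lipid receptor TREM2, lipoprotein lipase and lysosomal proteases, and are found around dying fat-laden hepatocytes. CD74 and H2-Ab1 belong to antigen presentation on MHC class II, which conventional dendritic cells, B cells and many macrophages share, so these genes do not mark macrophages alone.

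The libraries held 7139 (SD), 6928 (MASLD) and 7598 (Aza-TdC) barcodes with median UMI counts of 5849, 5923 and 6383. No SD barcode had fewer than 1546 UMIs, while the other libraries began at 500. Member nuclei were shallower than the liver around them, with medians of 2543, 2199 and 1966.5 UMIs, against 5854, 6098 and 6448 in the remaining kept nuclei. In all, members supplied 22380 (SD), 254021 (MASLD) and 32772 (Aza-TdC) UMIs, so the SD and Aza-TdC values are the least precise. Between 9 and 15 barcodes were shared by each pair of libraries, and none of them was a member. The median mitochondrial share of members was 0.331% (SD), 1.48% (MASLD) and 0.452% (Aza-TdC), against 0.126%, 0.202% and 0.0869% in the remaining nuclei. MASLD members thus held more mitochondrial RNA than those of the other libraries, and that sign of RNA quality is set beside the comparisons it moves with. Transcripts of hepatocytes were present in members at 0.329 (SD), 0.416 (MASLD) and 0.255 (Aza-TdC) times their level in the remaining nuclei.

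The label of these nuclei was checked with genes the rule did not use. Ptprc, the pan-leukocyte gene that encodes CD45, was found in 8 of 8 SD, 75 of 91 MASLD and 13 of 14 Aza-TdC members. Thinned to 1000 UMIs per nucleus, which left out 0, 6 and 2 members, those shares were 87.5%, 68.2% and 83.3%, against 0.576%, 1.08% and 1.91% of the remaining nuclei thinned alike. Most members were therefore leukocyte nuclei by this gene. A list of 23 macrophage and myeloid genes summed to 11528 CPM in SD, 10385 CPM in MASLD and 14616 CPM in Aza-TdC members, against 849 CPM, 620.2 CPM and 714 CPM in the remaining nuclei.

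Macrophage identity, by contrast, was not upheld for most SD members. Mertk, a receptor that macrophages use to engulf dead cells, had 0 UMIs in 0 nuclei, 187 UMIs in 44 nuclei and 37 UMIs in 5 nuclei in SD, MASLD and Aza-TdC. Csf1r, the receptor for the macrophage growth factor, had 2 UMIs in 2 nuclei, 71 UMIs in 36 nuclei and 9 UMIs in 5 nuclei. Flt3, the growth factor receptor of dendritic cells, had 7 UMIs in 6 nuclei, 49 UMIs in 21 nuclei and 0 UMIs in 0 nuclei. Zbtb46, a transcription factor of conventional dendritic cells, had 9 UMIs in 6 nuclei, 23 UMIs in 14 nuclei and 0 UMIs in 0 nuclei. Most SD members thus carried dendritic genes and few or no transcripts of the macrophage receptors, whereas in Aza-TdC each of these receptors was found in 5 of 14 members and Flt3 and Zbtb46 in 0. The list of 15 conventional dendritic genes summed to 6747 CPM (5714 to 7913) in SD, 2512 CPM (2320.5 to 2714) in MASLD and 1221 CPM (872 to 1662) in Aza-TdC. These nuclei are accordingly called members, or by the genes that lead them, and not macrophages as a whole.

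The nearness of members to the limit of the rule differed by library. The sum over the 7 genes ran from 3 to 16 UMIs per member with a median of 5 in SD, from 3 to 174 with a median of 17 in MASLD, and from 3 to 35 with a median of 6 in Aza-TdC. Just inside the limit, with exactly 3 UMIs, were 2, 5 and 1 members, of which 2, 1 and 1 had a Ptprc UMI. Just outside it, with 2 UMIs and every other condition met, were 2, 8 and 5 nuclei, of which 1, 2 and 3 had a Ptprc UMI. Kept nuclei with at least 3 rule UMIs numbered 14, 203 and 96. Of these, 3, 32 and 31 fell short of 0.1%, and a further 0, 52 and 36 had more UMIs of the Kupffer cell genes. The condition on the Kupffer cell genes thus removed many candidates in MASLD and Aza-TdC, and whether all of these were Kupffer cells was not tested. No Kupffer gene UMI at all was present in 8 of 8 SD, 61 of 91 MASLD and 9 of 14 Aza-TdC members.

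The 7 rule genes were carried in different proportions by the libraries, as the plot of their levels shows. Levels are UMIs summed over members and scaled to CPM, counts per 1000000 member UMIs. Cd74, the invariant chain that loads MHC class II, stood at 1117 CPM (723 to 1649) in the SD library, 4854 CPM (4587 to 5133) in the MASLD library and 2136 CPM (1665 to 2699) in the Aza-TdC library, and was found in 6, 79 and 9 members. H2-Ab1, the beta chain of the class II molecule I-A, stood at 581 CPM (309 to 993), 2094 CPM (1920.1 to 2280.1) and 488 CPM (279 to 793) in the same order. Both class II genes were at their lowest in SD or Aza-TdC and at their highest in MASLD. Lyz2, a lysozyme of monocytes, macrophages and neutrophils, had 1 UMI in 1 nucleus in SD, 364 UMIs in 53 nuclei in MASLD and 18 UMIs in 6 nuclei in Aza-TdC. Ccr2, the receptor that draws monocytes out of the blood, stood at 179 CPM (48.7 to 458), 472 CPM (392 to 565) and 519 CPM (302 to 831). Gpnmb, a glycoprotein of lipid-loaded macrophages, had 0 UMIs in 0 nuclei, 192 UMIs in 27 nuclei and 19 UMIs in 2 nuclei. Trem2, the lipid receptor, had 0 UMIs in 0 nuclei, 21 UMIs in 12 nuclei and 2 UMIs in 1 nucleus. Gpnmb and Trem2 were thus not detected in SD members. Itgax, which encodes CD11c and is carried by dendritic cells and some macrophages, went the other way, at 402 CPM (184 to 763), 169 CPM (123 to 228) and 61.0 CPM (7.39 to 220.5). In SD the 22380 member UMIs put the level that 3 UMIs would have at 134 CPM, so Gpnmb and Trem2 levels under it could not have been seen.

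**Figure D1:**
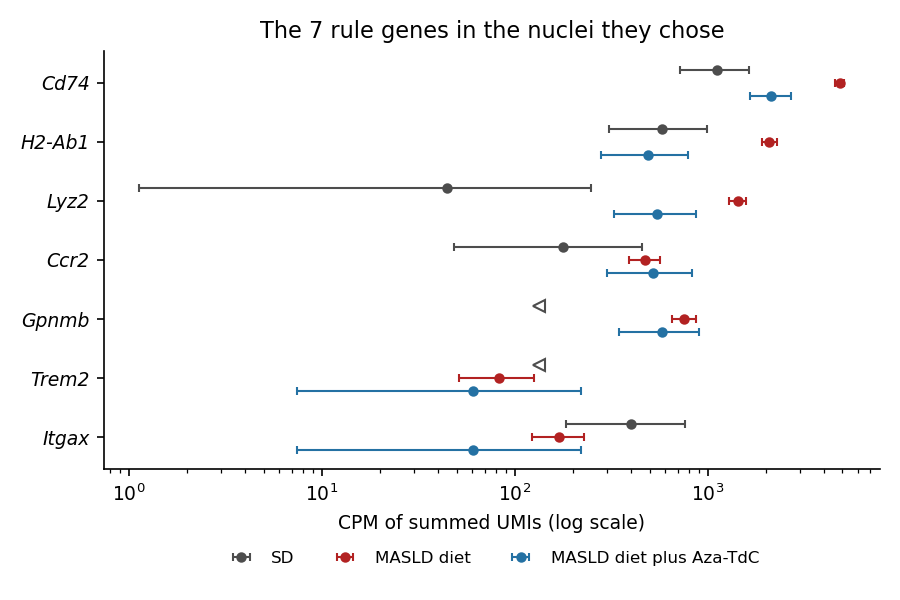
Levels of the 7 rule genes in member nuclei of the SD, MASLD and Aza-TdC libraries, in CPM on a log axis, with exact Poisson 95% intervals as bars; open triangles mark the level that 3 UMIs would have where 0 UMIs were found. Gpnmb and Trem2 had 0 UMIs in SD, while Itgax was highest in SD at 402 CPM and lowest in Aza-TdC at 61.0 CPM.

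The windows at the start of 4 of these and related genes are shown because the class II genes and the genes of the macrophage programs parted between libraries and between member nuclei. Each window runs from 250 bases before to 50 bases after the gene's start (RefSeq, build GRCm38.p6), in the direction of the gene. Capitals mark the motif searched on both strands. H2-Aa (chr17:34287774-34288073, minus strand) and H2-Eb1 (chr17:34305617-34305916, plus strand) encode the alpha chain of I-A and the beta chain of I-E, and each holds CTGATTGG, the Y box of class II promoters, 51 and 62 bases before the start. Lyz2 (chr10:117282223-117282522, minus strand) holds AGGAAGT, a motif of PU.1 and other ETS factors, on the opposite strand 100 bases before the start, where the gene's own strand reads ACTTCCT. Gpnmb (chr6:49036268-49036567, plus strand) holds TGACTCA, the motif of AP-1, 9 bases after the start.
H2-Aa: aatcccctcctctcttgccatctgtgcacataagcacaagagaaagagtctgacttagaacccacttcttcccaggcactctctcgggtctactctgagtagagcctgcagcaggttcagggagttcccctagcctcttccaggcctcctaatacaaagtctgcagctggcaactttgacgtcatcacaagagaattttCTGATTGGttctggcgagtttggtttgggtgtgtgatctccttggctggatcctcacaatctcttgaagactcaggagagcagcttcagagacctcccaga
H2-Eb1: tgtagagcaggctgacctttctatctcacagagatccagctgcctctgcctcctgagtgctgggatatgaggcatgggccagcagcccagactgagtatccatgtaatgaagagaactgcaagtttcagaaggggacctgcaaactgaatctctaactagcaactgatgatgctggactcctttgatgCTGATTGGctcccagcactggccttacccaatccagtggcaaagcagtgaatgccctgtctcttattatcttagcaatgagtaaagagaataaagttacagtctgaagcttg
Lyz2: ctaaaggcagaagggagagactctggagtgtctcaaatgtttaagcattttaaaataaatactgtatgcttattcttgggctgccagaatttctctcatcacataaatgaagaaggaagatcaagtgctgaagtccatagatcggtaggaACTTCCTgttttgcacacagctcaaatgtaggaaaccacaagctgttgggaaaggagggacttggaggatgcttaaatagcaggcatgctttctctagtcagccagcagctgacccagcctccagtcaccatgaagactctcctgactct
Gpnmb: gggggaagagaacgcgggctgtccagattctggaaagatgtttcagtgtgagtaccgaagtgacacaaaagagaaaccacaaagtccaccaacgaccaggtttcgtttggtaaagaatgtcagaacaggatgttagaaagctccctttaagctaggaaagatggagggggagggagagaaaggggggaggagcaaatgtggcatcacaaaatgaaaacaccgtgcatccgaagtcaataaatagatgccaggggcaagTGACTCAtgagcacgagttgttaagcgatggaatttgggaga
Of 32851 windows of this length, CTGATTGG was found in 1346 (4.10%), AGGAAGT in 3072 (9.35%) and TGACTCA in 1709 (5.20%), and none of these motifs contains another. Among the 18 antigen presentation genes, 13 had a window, and CTGATTGG was found in 7 of them, namely H2-Aa, H2-Eb1, H2-Oa, H2-K1, H2-D1, Tap1 and Psmb9. Of the 7 rule genes 5 had a window, with AGGAAGT in Lyz2 and TGACTCA in Gpnmb and Itgax. A match describes the letters of a window and is not evidence that a factor binds there.

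Members were a larger share of nuclei in the MASLD library than in either other library, as the plot of shares shows. They made up 0.112% of kept nuclei in SD (8 of 7139, exact Clopper-Pearson interval 0.0484 to 0.221%), 1.35% in MASLD (91 of 6726, 1.09 to 1.66%) and 0.184% in Aza-TdC (14 of 7591, 0.101 to 0.309%). The MASLD interval lay above and apart from the other intervals, which overlapped. The MASLD share was 12.1 times the SD share (5.87 to 28.8), the Aza-TdC share was 0.136 times the MASLD share (0.0717 to 0.241), and the Aza-TdC share was 1.65 times the SD share (0.644 to 4.53).

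Nuclei of the Kupffer side were chosen in the same way, with at least 3 UMIs and 0.1% over the 6 Kupffer genes and a sum above that of the 7 genes, and are called Clec4f/Cd5l nuclei. They numbered 8, 48 and 104, or 0.112% (SD), 0.714% (MASLD) and 1.37% (Aza-TdC) of kept nuclei. Their Aza-TdC share was 1.92 times that of MASLD (1.35 to 2.76), the opposite direction to the members. Among members and Clec4f/Cd5l nuclei together, members were 50% in SD (8 of 16, 24.7 to 75.3%), 65.5% in MASLD (91 of 139, 56.9 to 73.3%) and 11.9% in Aza-TdC (14 of 118, 6.64 to 19.1%). The difference in direction between these kinds of nuclei was not tested, since each group was 1 library. With at most 1% mitochondrial UMIs per nucleus, members numbered 8, 27 and 12, and Clec4f/Cd5l nuclei 8, 34 and 101. Members were then no longer the majority of both kinds in MASLD. The MASLD share of members was then 0.436%, 3.89 times that of SD, and the Aza-TdC share was 0.368 times that of MASLD. Left without the nuclei that Cd74 and H2-Ab1 lead, members numbered 1, 31 and 6, against 8, 48 and 104 Clec4f/Cd5l nuclei. The DAPI sort and the absence of SD barcodes under 1546 UMIs can also set these shares. With at least 1500 UMIs per nucleus members numbered 8, 66 and 12, and Clec4f/Cd5l nuclei 8, 33 and 58.

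**Figure D2:**
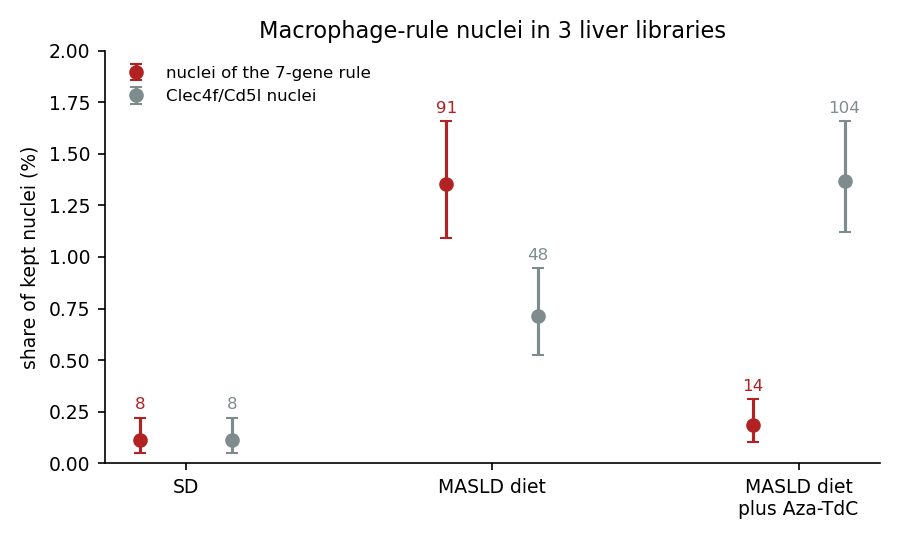
Share of kept nuclei (percent) that were members or Clec4f/Cd5l nuclei in each library, with exact Clopper-Pearson 95% intervals as bars and the number of nuclei above each. Members were most frequent in MASLD at 1.35%, whereas Clec4f/Cd5l nuclei were most frequent in Aza-TdC at 1.37%.

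Within the MASLD library the members were not 1 kind of nucleus. Each was assigned to the group of rule genes with most UMIs in it. Cd74 and H2-Ab1 led in 60 of 91 MASLD members (65.9%, 55.3 to 75.5%), Gpnmb, Trem2 and Itgax in 15 (16.5%, 9.53 to 25.7%), Lyz2 and Ccr2 in 14 (15.4%, 8.67 to 24.5%), and 2 were tied. In SD the numbers were 7, 1, 0 and 0, and in Aza-TdC 8, 2, 4 and 0. The class II genes led in most members of each library. These groups follow from the rule genes, so the values of other genes in them are descriptions of MASLD nuclei and no test is given.

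MASLD nuclei led by Cd74 and H2-Ab1 had the highest summed level of dendritic genes. The conventional dendritic list summed to 3200.1 CPM (2925 to 3494) in them, 1762 CPM (1438 to 2137) in those led by Gpnmb, Trem2 and Itgax and 615 CPM (376 to 950.4) in those led by Lyz2 and Ccr2. All 49 Flt3 UMIs of the MASLD members lay in 21 of the 60 class II-led nuclei, as did all 23 UMIs of Zbtb46. Wdfy4, which dendritic cells need for cross-presentation, had 156, 6 and 2 UMIs in the 3 kinds of nuclei. Cst3, the protease inhibitor cystatin C, had 566, 10 and 41. The inhibitory receptor gene Btla had 45, 0 and 0, and the NK-receptor-like gene Klri1 had 26, 0 and 0. The antigen presentation list, which holds no rule gene, was also highest there, at 9863 CPM against 2293 CPM and 3477 CPM. The summed level of cell cycle genes was highest there too, at 2437 CPM against 650.1 CPM and 277 CPM, with 39, 7 and 0 UMIs of the proliferation gene Mki67. A UMI of that list was found in 23 of 60, 6 of 15 and 4 of 14 nuclei, so detection did not follow the order of the sums. MASLD nuclei chosen by the Kupffer genes, the Clec4f/Cd5l nuclei, stood at 1853 CPM, with a UMI in 26 of 48. The class II-led nuclei also had the highest median mitochondrial share, 1.85% against 1.20% and 1.13%, and its part in these values was not tested.

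The 15 MASLD nuclei led by Gpnmb, Trem2 and Itgax had a higher summed level of lipid-associated genes than those led by the other rule genes. The list of 22 lipid-associated genes, none of them a rule gene, summed to 11138 CPM (10299 to 12027) there, against 4547 CPM (4218 to 4894) in class II-led and 5692 CPM (4901 to 6574) in Lyz2- and Ccr2-led nuclei. They held 651 of the 1821 MASLD UMIs of the list, the class II-led nuclei 709, the Lyz2- and Ccr2-led ones 185, and 1 of the tied nuclei 276. Abca1, the cholesterol exporter, had 33 UMIs in class II-led, 73 in Gpnmb-led and 14 in Lyz2-led nuclei, or 212, 1249 and 431 CPM. Mertk stood at 429.7, 1437 and 1015 CPM in the same order, and Lpl, lipoprotein lipase, at 475, 1009 and 554 CPM. Atp6v0d2, a subunit of the lysosomal proton pump, had 4, 57 and 0 UMIs, and a further 13 in the tied nuclei. Cd5l, a Kupffer cell gene of the rule, had 11, 65 and 3 UMIs, so nuclei led by Gpnmb carried a Kupffer gene as well. The Kupffer identity list, which holds no rule gene, had another order. It summed to 1610 CPM in class II-led, 2139 CPM in Gpnmb-led and 4308 CPM (3624 to 5083) in Lyz2- and Ccr2-led nuclei. Igf1, the growth factor, had 43, 59 and 6 UMIs. 1 tied nucleus alone supplied 56 of the 144 MASLD UMIs of Mmp12, the macrophage elastase, and 63 of the 100 UMIs of the scavenger receptor gene Colec12.

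The 14 MASLD nuclei led by Lyz2 and Ccr2 had the highest summed level of monocyte genes, and Fn1 decided that order. The monocyte list summed to 4308 CPM (3624 to 5083) in them, against 2091 CPM in class II-led and 1129 CPM in Gpnmb-led nuclei. Fn1, fibronectin, had 49, 11 and 92 UMIs in class II-, Gpnmb- and Lyz2-led nuclei, of which the last lay in 5 nuclei with up to 43 in 1 of them. Without Fn1, an alternative added after seeing the data, the list stood at 1477 CPM (1089 to 1958) in Lyz2-led, 1776 CPM (1573 to 1998) in class II-led and 941 CPM in Gpnmb-led nuclei, so the first no longer ranked highest and its interval overlapped that of the class II-led nuclei. Prg4, the lubricin of joints and serosal surfaces, had 1, 0 and 31 UMIs, the last in 3 nuclei. Saa3, an acute phase protein of activated macrophages, had 2, 0 and 27 UMIs, and Cfp, properdin of the complement system, had 13, 1 and 21. F13a1, a coagulation factor subunit of monocytes, had 2, 0 and 11. C1qb, a complement subunit of tissue macrophages, had 50, 19 and 44 UMIs, so per UMI of the nuclei it was also highest in the Lyz2-led ones. Several of these genes rest on 3 to 5 nuclei.

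**Figure D3:**
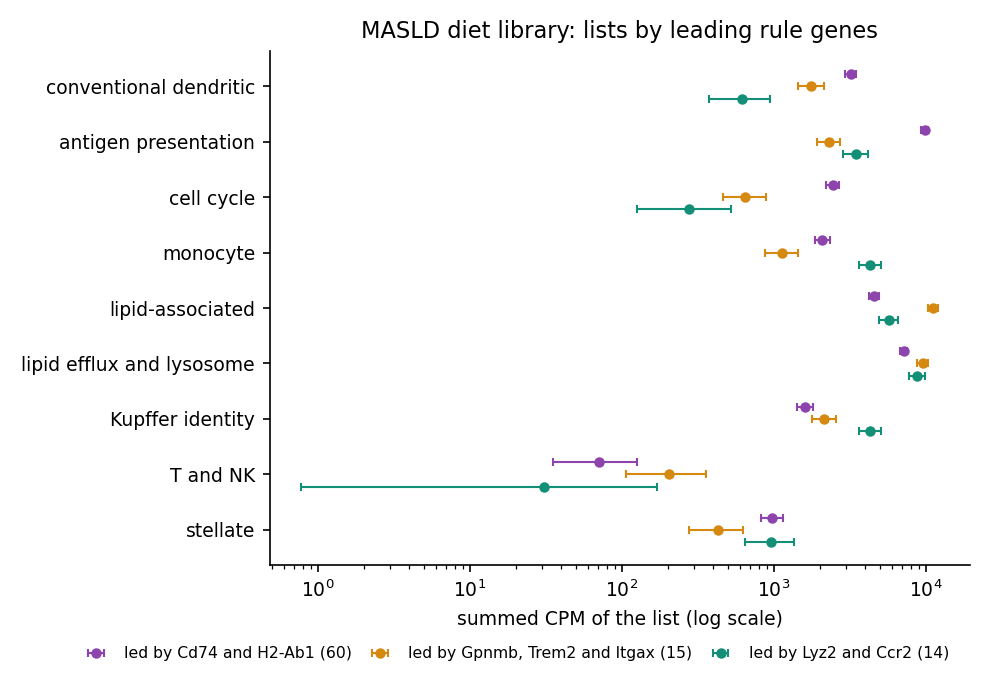
Summed levels of 9 gene lists (CPM, log axis) in MASLD members led by Cd74 and H2-Ab1 (60 nuclei), by Gpnmb, Trem2 and Itgax (15) and by Lyz2 and Ccr2 (14), with exact Poisson 95% intervals as bars. The conventional dendritic and antigen presentation lists were highest in the first, the lipid-associated list in the second (11138 CPM) and the monocyte list in the third (4308 CPM).

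Single nuclei were also looked at for genes found together. Among 91 MASLD members, Mertk was present in 44 and Flt3 in 21, and 2 nuclei had both. Neither gene was used by the rule. Gpnmb, a rule gene, was present in 27, of which 1 had Flt3, 20 had Lpl and 21 had Cd74. The pairs with Gpnmb bear on the choice of members and are a description. Deeper nuclei have more of every gene detected, so these counts depend on depth.

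The comparison of MASLD with SD members addressed what accompanies the diet. Of 3585 genes with at least 20 UMIs over both libraries, 651 (18.2%) had a log2 CPM ratio of at least 1 and 474 (13.2%) a ratio of at most -1, together 31.4%, and the median over all was 0.00. These counts describe 1 library against 1 library. With hepatocyte RNA subtracted the split turned, to 295 of 3354 genes (8.80%) at least 1 and 610 (18.2%) at most -1. RNA quality genes had the highest median of the lists that hold no rule gene, 2.09, ahead of the lysosome list at 1.41 and the lipid-associated list at 1.22. SD supplied only 8 nuclei, 7 of them led by class II genes, so the mix of nuclei and the level within a nucleus cannot be told apart in this comparison.

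Most measured genes of the lipid-associated and lysosome lists were higher in MASLD members, and the plot of levels shows 15 of them. Of 22 lipid-associated genes 16 were measured, and 10 reached a log2 ratio of 1 while 0 reached -1. Their median was 1.22, and that of all genes 0.00. Ctsb, the lysosomal protease cathepsin B, had 1 UMI in 1 nucleus in SD and 278 UMIs in 57 nuclei in MASLD, 44.7 CPM (1.13 to 249) against 1094 CPM (969.5 to 1231), a log2 ratio of 4.61 (2.12 to 9.92). Lpl had 0 UMIs in SD and 159 UMIs in 39 nuclei in MASLD, and was at least 4.67-fold higher, taking 3 counts over the SD members as the floor. Folds given as at least, here and below, are set against such a floor. They leave out the counting error of the other side and are not interval limits. Cd36, the fatty acid transporter, stood at 89.4 CPM and 713 CPM (613 to 824), Ctsd, cathepsin D, at 44.7 CPM and 669 CPM (572 to 778), and Mitf, a transcription factor of lysosomal genes, at 89.4 CPM and 575 CPM (485 to 676). Each rested on 1 or 2 UMIs in SD. Lgals3, the lectin galectin-3, had a log2 ratio of 1.32 (0.067 to 2.97), and Mmp12 one of 0.67 (-0.35 to 1.90), whose interval spans 0.

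Of the 24 lipid efflux and lysosome genes 20 were measured, with 12 at 1 or more, 0 at -1 or less and a median of 1.41. Psap, prosaposin, which feeds lysosomal lipid breakdown, stood at 849 CPM (511 to 1326) in SD and 2767 CPM (2567 to 2979.8) in MASLD, a log2 ratio of 1.70 (1.05 to 2.45), over 19 UMIs in 7 SD nuclei. Abca1 had 0 and 125 UMIs and was at least 3.67-fold higher. Pparg, a nuclear receptor of lipid storage, had a ratio of 1.82 (0.24 to 4.12), Grn, progranulin, one of 2.40 (0.52 to 5.46), and Npc2, a lysosomal cholesterol carrier, one of 2.62 (0.099 to 7.95). Apoe, which carries lipid out of macrophages and is also abundant in hepatocytes, stood at 804 CPM (477 to 1271) and 4728 CPM (4464 to 5003), while the remaining nuclei had 805 CPM and 2171 CPM. The SD level of Apoe in members thus did not exceed that of the surrounding liver, and the MASLD level did. With at most 1% mitochondrial UMIs the medians of the lipid-associated and the lysosome list were 1.97 and 1.94. Left without class II-led nuclei, which leaves 1 SD nucleus, both medians were 0, 1 of 12 and 0 of 16 measured genes were at least 1, and 1.83% of all measured genes were.

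**Figure D4:**
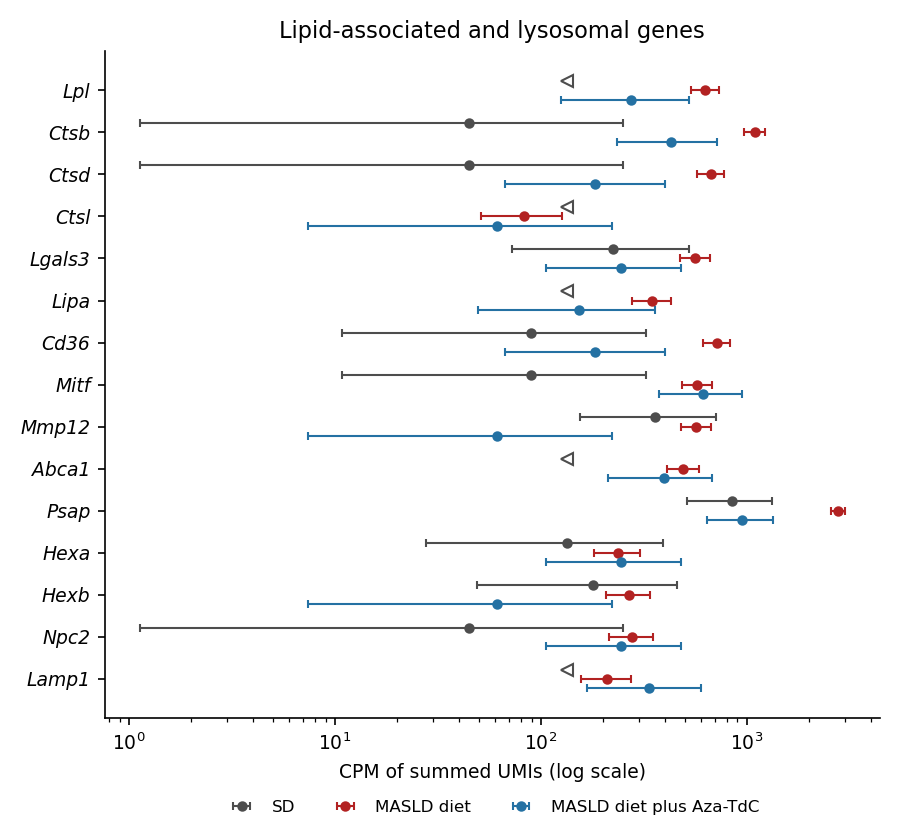
Levels of 15 genes of the lipid-associated and lysosomal lists in members of each library, in CPM on a log axis, with exact Poisson 95% intervals as bars and open triangles at the level that 3 UMIs would have where 0 UMIs were found. MASLD lay highest for genes such as Ctsb (1094 CPM) and Psap (2767 CPM), with the SD intervals wide because 8 nuclei stand behind them.

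Macrophage and myeloid genes went in both directions. Of 21 measured macrophage and myeloid genes 7 were at least 1 and 4 at most -1 (median 0.40). With members high in hepatocyte RNA left out, 8 of 20 were at least 1 and 1 at most -1 (median 0.62). With at most 1% mitochondrial UMIs, 8 of 18 were at least 1 and 4 at most -1 (median 0.58). Mertk was at least 5.49-fold higher in MASLD, over 187 UMIs in 44 nuclei against 0 in SD. Cybb, the catalytic subunit of the phagocyte oxidase, had a ratio of 3.59 (1.09 to 8.91) over 1 SD UMI, and Ctss, cathepsin S, one of 1.62 (0.48 to 3.09). Inpp5d, a lipid phosphatase of leukocytes, stood at -1.41 and Dock2, which drives leukocyte migration, at -1.11. Monocyte genes had 4 of 7 at least 1 and a median of 1.02, with Fn1 at 2.16. The monocyte list summed to 715 CPM (409 to 1161) in SD and 2130 CPM (1954 to 2317) in MASLD members. The remaining nuclei had 576 CPM and 568 CPM, so genes of this list were also carried by the surrounding liver. Of 10 measured Kupffer identity genes 7 were at least 1 and 1 at most -1 (median 1.07, but 0.012 with hepatocyte RNA subtracted), among them C1qb, which had 0 SD UMIs and was at least 3.91-fold higher. Among 7 measured dendritic genes 1 was at least 1 and 3 at most -1 (median -0.70). Wdfy4 stood at 3262 CPM (2557 to 4101) in SD and 649.6 CPM (554 to 757) in MASLD, a ratio of -2.33 (-2.73 to -1.91).

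Antigen presentation genes went in both directions. Of 13 measured, 6 were at least 1 and 2 at most -1 (median 0.81). H2-Aa, whose window is printed above, stood at 849 CPM (511 to 1326) in SD and 2035 CPM (1864 to 2219) in MASLD, and H2-Eb1 at 536 CPM (277 to 937) and 1504 CPM (1357 to 1662). Ciita, the transactivator that switches on class II genes, was lower, at 804 CPM (477 to 1271) and 283 CPM (222 to 357), a ratio of -1.50 (-2.27 to -0.67). The class II structural genes and their transactivator therefore had opposite directions. With at most 1% mitochondrial UMIs the median of the list was 0.20, with 2 of 7 genes in each direction, and with hepatocyte RNA subtracted it was 0.012. With members high in hepatocyte RNA left out it was 1.52, with 8 of 12 genes at least 1 and 0 at most -1. The split of this list thus depended on the setting.

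The remaining genes with the most extreme ratios were named by their interval bound nearest 0. Cst3 had SD and MASLD levels of 402 CPM and 2449 CPM, and Fgd4, a guanine nucleotide exchange factor, had 0 and 135 UMIs and was at least 3.96-fold higher. Lower in MASLD were Itpr1, an intracellular calcium channel, at -1.68 (-2.20 to -1.12), Mctp1, a calcium-binding membrane protein, at -1.64 (-2.17 to -1.09), the cyclin gene Ccnd3 at -1.61 (-2.12 to -1.08), the autophagy gene Uvrag at -1.50 (-2.05 to -0.93) and the blood cell transcription factor Runx1 at -1.52 (-2.08 to -0.92). Alcam, an adhesion molecule, Elmo1 and Dock10, regulators of cell movement, and Etv6, an ETS repressor, lay between -1.34 and -1.14. Each of these lower genes was found in 7 or 8 of the 8 SD members. The sign of RNA quality moved with this comparison. Of 15 RNA quality genes 13 were at least 1 and 0 at most -1 (median 2.09), and their summed level was 47498 CPM in SD and 49279 CPM in MASLD. Malat1, a nuclear RNA, supplies most of that sum and had the opposite direction, at 42717 CPM and 27494 CPM. With at most 1% mitochondrial UMIs the median was 0.96. Its part in the result was not tested.

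The comparison of Aza-TdC with MASLD members addressed the compound on the same diet. Of 3698 measured genes 401 (10.8%) reached a log2 ratio of 1 or more and 685 (18.5%) of at most -1, together 29.4%, with a median of -0.046. The Aza-TdC side held 14 nuclei, so a single nucleus can set the level of a gene. With hepatocyte RNA subtracted the split turned, to 555 of 3449 genes (16.1%) at least 1 and 396 (11.5%) at most -1. Among the lists, lipid-associated genes were mostly lower in Aza-TdC members. Their summed level was 7169 CPM in MASLD and 3143 CPM in Aza-TdC members. In Clec4f/Cd5l nuclei it was 7295 CPM in MASLD and 4615 CPM in Aza-TdC. In the remaining nuclei it was 1862 CPM and 1481 CPM, so the direction was not particular to members.

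Of 17 measured lipid-associated genes 0 were at least 1 and 10 at most -1 (median -1.19). Cd36 stood at 713 CPM (613 to 824) in MASLD and 183 CPM (67.2 to 398) in Aza-TdC, a ratio of -1.96 (-3.43 to -0.81). Ctsd had a ratio of -1.87 (-3.34 to -0.72), Ctsb -1.36 (-2.25 to -0.59), Lgals3 -1.20 (-2.43 to -0.18) and Lpl -1.19 (-2.34 to -0.23). The intervals of Cd36, Ctsd, Ctsb, Lgals3 and Lpl all lay below 0, but they leave out the spread between nuclei. Lpl was found in 2 of 14 Aza-TdC members. Colec12 had 100 UMIs in MASLD and 0 in Aza-TdC, at least 4.30-fold lower, although 63 of the MASLD UMIs came from 1 nucleus. Mmp12 had a ratio of -3.22 (-6.27 to -1.34) but lay in 10 MASLD nuclei and 1 Aza-TdC nucleus. Gpnmb itself, a rule gene also found in 2 of 14 Aza-TdC members, differed little at -0.38 (-1.15 to 0.30), and Mitf stood at 0.087 (-0.67 to 0.77). Lysosome genes had 2 of 20 at least 1 and 4 at most -1 (median -0.24), with Psap at -1.55 (-2.12 to -1.03) and Abca1 at -0.31 (-1.26 to 0.52). With at most 1% mitochondrial UMIs the lipid-associated median was -1.57, with 9 of 13 genes at most -1, and without class II-led nuclei it was -1.42, with 8 of 12 at most -1. With the members high in stellate, mesothelial or T and NK transcripts left out it was -0.82, with 6 of 16 at most -1.

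Of 14 measured antigen presentation genes 2 were at least 1 and 4 at most -1 (median -0.24). H2-Aa stood at 427 CPM (234 to 717) in Aza-TdC, in 6 of 14 nuclei, a ratio to MASLD of -2.25 (-3.13 to -1.49). After thinning to 1000 UMIs it was found in 62.5% of SD, 65.9% of MASLD and 25.0% of Aza-TdC members, so its detection was also lowest in Aza-TdC. H2-Eb1 had a ratio of -1.04 (-1.70 to -0.44). Thinned alike, H2-Eb1 was found in 37.5% of SD, 45.9% of MASLD and 50% of Aza-TdC members. The detection of H2-Eb1 was thus not lowest in Aza-TdC, unlike that of H2-Aa. Ciita had a ratio of -0.22 (-1.48 to 0.84), whose interval spans 0. Nlrc5 and Psmb9, which serve presentation on MHC class I, were at 1.15 (-0.20 to 2.32) and 1.85 (0.32 to 3.24), over 8 and 7 Aza-TdC UMIs, while the class I genes H2-K1, H2-D1 and Tap1 stood at 0.31, -0.83 and -0.27. Dendritic genes had 0 of 7 at least 1 and 3 at most -1 (median -0.71), with Clec9a, a receptor for dead cells, at -2.54 and Flt3, at 0 in Aza-TdC, at least 2.11-fold lower.

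Interferon response genes were few. Of 6 measured, 4 were at least 1 and 0 at most -1 (median 1.07). The list summed to 1232 CPM in MASLD and 2044 CPM in Aza-TdC members. In Clec4f/Cd5l nuclei it summed to 1205 CPM and 2382 CPM, and in the remaining nuclei to 345 CPM and 555 CPM. A higher level in Aza-TdC was therefore not particular to members. Parp14 had a ratio of 1.24 (0.12 to 2.25), Ifi207 one of 1.13 (0.12 to 2.04) and Oasl2 one of 1.15 (-0.45 to 2.50). With members high in hepatocyte RNA left out the median was 0.73 and 1 of the genes was at least 1, and with hepatocyte RNA subtracted it was 0.75 and 0 were, so the count depends on few nuclei. Of 21 macrophage and myeloid genes 2 were at least 1 and 1 at most -1 (median 0.32).

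The named genes with the highest ratios included Gpr141, an orphan receptor of leukocytes, at 849 CPM (511 to 1326), 220.5 CPM (167 to 286) and 1037 CPM (718 to 1449.8) in SD, MASLD and Aza-TdC, a ratio of Aza-TdC to MASLD of 2.23 (1.58 to 2.87). It was found in 8 of 14 Aza-TdC and 26 of 91 MASLD members, and SD members had a similar level to Aza-TdC. The membrane protein gene Atrnl1 had 1.88 (1.21 to 2.53), Lrmda, a melanocyte differentiation gene, 1.27 (0.86 to 1.65), the leukocyte adaptor Fyb 1.14 (0.69 to 1.57), the imidazoline-binding protein gene Nisch 1.24 (0.61 to 1.83), the kinase gene Lyn 1.00 (0.60 to 1.37), the transcription factor Trps1 1.01 (0.55 to 1.44), the exchange factor Dock4 1.06 (0.48 to 1.61), which turned to -0.064 without Cd74 and H2-Ab1 in the rule, and the sodium-calcium exchanger Slc8a1 0.79 (0.44 to 1.13). Each of these was found in 6 to 12 Aza-TdC nuclei.

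Among the lowest ratios, Hdac9, a histone deacetylase, stood at 2324 CPM (1735 to 3047), 1153 CPM (1025 to 1293) and 91.5 CPM (18.9 to 268), in 6 of 8, 46 of 91 and 2 of 14 members. Its ratio of Aza-TdC to MASLD was -3.66 (-5.94 to -2.09). Clec4f/Cd5l nuclei of Aza-TdC held 429 UMIs of it, 1780.4 CPM, so the low level was seen in members and not in the Kupffer-side nuclei of the same library. Cst3 stood at 2449 CPM and 275 CPM, a ratio of -3.16 (-4.29 to -2.22). The LIM protein gene Crip1 had -3.89 (-9.21 to -1.38), the oxidase subunit gene Cyba -2.98 (-6.04 to -1.09) and the actin-binding thymosin gene Tmsb4x -2.11 (-3.44 to -1.04). Slpi, a protease inhibitor, had -3.67 (-8.99 to -1.16), but its MASLD UMIs lay in 9 nuclei, and with members high in stellate, mesothelial or T and NK transcripts left out the ratio was 1.17. Crip1, Cyba and Slpi each had 1 or 2 Aza-TdC UMIs.

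Transcripts of other cells and RNA quality moved with this comparison. Of 15 RNA quality genes 0 were at least 1 and 12 at most -1 (median -1.48), and of 17 hepatocyte genes 0 and 6 (median -0.54). Stellate genes summed to 0 CPM in SD, 827 CPM in MASLD and 1556 CPM in Aza-TdC, with UMIs in 0, 31 and 3 members and 94 UMIs in 1 MASLD and 49 in 1 Aza-TdC nucleus. T and NK genes summed to 44.7 CPM in SD, 94.5 CPM in MASLD and 488 CPM in Aza-TdC, with 13 of the 16 Aza-TdC UMIs in 1 nucleus. Mesothelial genes were at 0 in SD and Aza-TdC and at 244 CPM in MASLD. B and plasma genes summed to 804 CPM in SD, 496 CPM in MASLD and 793 CPM in Aza-TdC, and neutrophil genes to 0 CPM in SD, 82.7 CPM in MASLD and 122 CPM in Aza-TdC. The part of these transcripts in the ratios was not tested.

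Aza-TdC and SD members were compared last, over 14 and 8 nuclei. This pair of libraries enters the other comparisons too, and its ratios are given as values only. Of 438 measured genes 68 (15.5%) reached a log2 ratio of 1 or more and 64 (14.6%) of at most -1, together 30.1%. Macrophage and myeloid genes had 5 of 12 at least 1 and 0 at most -1 (median 0.43), and antigen presentation genes 0 and 1 of 6. Both measured dendritic genes were at most -1, with Wdfy4 at 3262 CPM in SD and 397 CPM in Aza-TdC. Hdac9 had a ratio of -4.67 (-6.99 to -3.04) and Mctp1 one of -2.99 (-4.40 to -1.81). A level of Cd74 of 1117 CPM in SD and 2136 CPM in Aza-TdC placed the class II-related rule genes of both libraries below MASLD.

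Members were then set against Clec4f/Cd5l nuclei of the same library, so that both sides come from 1 library. The rule split these nuclei on 13 genes, which are left out of the named genes, and genes that go with them describe the split and are not tested. Of 4599 measured genes in MASLD 547 (11.9%) had a ratio of at least 1 and 313 (6.81%) of at most -1, and of 3379 in Aza-TdC 411 (12.2%) and 692 (20.5%). In SD, with 8 nuclei on each side, 20.6% and 27.2% of 301 genes were past these limits. Of 3154 genes measured in both MASLD and Aza-TdC, 70 (2.22%) were at least 1 in both and 105 (3.33%) at most -1 in both, together 5.55%. The diagram of both ratios shows which lists lie on which side.

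Class II genes were higher in members in both the MASLD and the Aza-TdC library. H2-Eb1 stood at 1504 CPM in MASLD members and 125 CPM in MASLD Clec4f/Cd5l nuclei, a ratio of 3.59 (2.85 to 4.44), and its ratio in Aza-TdC was 4.00 (2.92 to 5.18). H2-Aa had MASLD and Aza-TdC ratios of 3.35 (2.76 to 4.01) and 2.88 (1.70 to 4.06), and Ciita 5.09 (2.57 to 10.42) and 3.07 (1.41 to 4.77). These genes accompany Cd74 and H2-Ab1, on which the nuclei were chosen. Of 14 antigen presentation genes in MASLD 7 were at least 1 and 0 at most -1 (median 1.06), and of 10 in Aza-TdC 2 and 1 (median 0.49). Cd86, a co-stimulator of T cells, ran against the class II genes, at -0.48 (-1.16 to 0.23) and -2.72 (-5.79 to -0.83) in MASLD and Aza-TdC.

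Other genes higher in members of both libraries were Mctp1, at 6.03 (3.53 to 11.34) in MASLD and at least 17.2-fold in Aza-TdC, and Gpr141, which had 0 UMIs in the Clec4f/Cd5l nuclei of all 3 libraries and was at least 6.08-fold higher in SD, 8.84-fold in MASLD and 83.3-fold in Aza-TdC members. It was found in 26 of 91 MASLD members, so most of these lacked it too. Myo5a, a motor protein of vesicles, had 3.05 and 5.38, the sodium-proton exchanger Slc9a7 4.38 and 5.20, the thymosin Tmsb10 4.21 and 4.88, and the sialyltransferase St8sia4 2.31 and 4.20. Lrrk2, a kinase of lysosomes and immune cells, had 4.05 in MASLD. In Aza-TdC it had 3 member UMIs, fewer than the 20 needed to measure a gene. That level was 7.35 times the floor, with the counting error of the 3 UMIs left out. The Clec4f/Cd5l side of Slc9a7, Tmsb10 and Lrrk2 rested on 0 or 1 UMI.

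Genes of Kupffer identity were lower in members, and did not include those of the rule. Of 16 measured in each library, 12 in MASLD (median -1.92) and 7 in Aza-TdC (median -0.76) were at most -1, and 0 were at least 1. Cd163, the scavenger receptor for haemoglobin, had 2 UMIs in MASLD members and 33 in Clec4f/Cd5l nuclei, a ratio of -5.12 (-8.23 to -3.15), and 0 against 151 in Aza-TdC, at least 6.85-fold lower. Slc40a1, the iron exporter ferroportin, had -3.38 (-3.90 to -2.89) and -3.04 (-4.26 to -2.05). Both genes were among those named for their low ratios in this comparison. C1qa, C1qb and C1qc were nearer, at -1.08, -0.59 and -0.68 in MASLD. The phosphatase gene Ptprm had -2.98 and -3.65, the complement gene C6 -3.75 and -5.11, the palmitoyltransferase Zdhhc14 -1.98 and -4.45, the RNA-binding protein gene Samd4 -2.15 and -4.11, and the formin Fmnl2 -1.66 and -2.39. Btbd11 had -3.79 and the membrane repair gene Dysf -3.76 in MASLD, and both had 0 UMIs in Aza-TdC members, at least 8.61- and 5.08-fold lower. The ankyrin gene Ank2 had -2.75 and -5.16, with 33 of the 39 MASLD member UMIs in 1 nucleus.

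Monocyte genes were higher in MASLD members, with 6 of 7 at least 1 and 0 at most -1 (median 1.86), whereas in Aza-TdC 1 of 6 was at least 1 and 1 at most -1 (median 0.20). S100a6, a calcium-binding protein, had 4.24 (1.68 to 9.58) over 1 UMI in MASLD Clec4f/Cd5l nuclei, and Plac8 had 1.86 (0.13 to 4.24) and, in Aza-TdC, 2.14 (0.77 to 3.43). Dendritic genes were higher in MASLD members, 5 of 7 (median 1.53), and in Aza-TdC 1 of 4 was at least 1 and 3 at most -1 (median -1.19). Flt3, with 49 UMIs in MASLD members and 0 in Clec4f/Cd5l nuclei, was at least 7.74-fold higher. Without class II-led nuclei the MASLD dendritic median was -0.59 and the monocyte median 0.76. Clec9a and Cadm1, counted as dendritic, were also carried by Clec4f/Cd5l nuclei, at 174 CPM and 1246 CPM in MASLD. So was Wdfy4. Thinned to 1000 UMIs, it was found in 30.8% of Clec4f/Cd5l nuclei and 27.1% of members in MASLD. In Aza-TdC these shares were 20.7% and 25.0%, and in SD 12.5% and 75.0%. Wdfy4 detection thus did not part members from Clec4f/Cd5l nuclei in MASLD and Aza-TdC.

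Lipid-associated genes did not part members from Clec4f/Cd5l nuclei as a list. Of 18 measured in MASLD 5 were at least 1 and 2 at most -1 (median 0.068), and of 11 in Aza-TdC 0 and 3 (median -0.61). Ctsb stood at 1094 CPM (969.5 to 1231) in MASLD members and 1462 CPM (1254 to 1695) in Clec4f/Cd5l nuclei, Cd36 at 713 CPM and 698 CPM, and Abca1 at 492 CPM and 964 CPM. These levels were alike or higher on the Kupffer side. The 5 genes at 1 or more were Mmp12, Cstb, Cd9, Fabp5 and Spp1. Spp1, osteopontin, had 23 UMIs in MASLD members and 0 in Clec4f/Cd5l nuclei, at least 3.63-fold higher, and was at 0 in SD and Aza-TdC members. Those members held 22380 and 32772 UMIs, against 254021 in MASLD, so a Spp1 level like that of MASLD could have gone unseen there. Mmp12 had 3.09 (2.08 to 4.33) and, in Aza-TdC, -1.08 (-4.18 to 0.90). Left without class II-led nuclei, the lipid-associated median was 0.64 in MASLD, with 5 of 15 at least 1 and 0 at most -1. RNA quality genes were higher in members, 6 of 15 in MASLD (median 0.90) and 4 of 14 in Aza-TdC (median 0.58), and their part in these ratios was not tested.

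**Figure D5:**
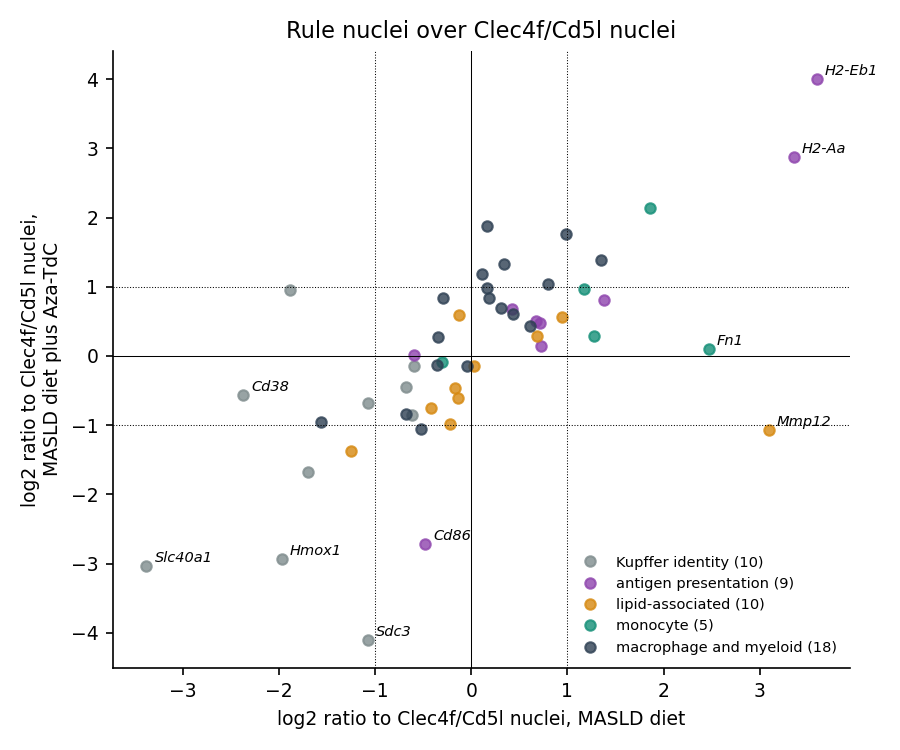
Log2 ratio of members over Clec4f/Cd5l nuclei in MASLD (horizontal axis) and in Aza-TdC (vertical axis) for genes of 5 lists measured in both libraries and with UMIs on both sides. Each point is 1 gene, dotted lines mark ratios of 1 and -1, H2-Eb1 and H2-Aa lie highest on both axes, and most Kupffer identity genes lie below 0 on both.

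Further lists that bear on macrophage function gave few genes past the limits. Of 5 measured inflammatory and polarization genes in MASLD against SD 0 lay past either limit, and in Aza-TdC against MASLD 0 were at least 1 and 2 at most -1, among them Arg1. Arg1, arginase 1, is abundant in hepatocytes, and its levels of 447 CPM, 256 CPM and 61.0 CPM in SD, MASLD and Aza-TdC members lay below the 1036 CPM, 865 CPM and 877 CPM of the remaining nuclei, so it is not read as a level of these cells. Tnf, Il1b and the other cytokine genes of the list had too few UMIs to be measured. Of 13 phagocytosis genes 3 were at least 1 and 2 at most -1 in MASLD against SD, with the lipoprotein and debris receptor Lrp1 at 2.41 (0.53 to 5.48). Of 9 chemokine receptor and integrin genes 2 were at least 1 there and 0 at most -1, and Itga4, an integrin of recruited leukocytes, was higher in members than in Clec4f/Cd5l nuclei at 1.53 (0.87 to 2.25) and 2.22 (1.52 to 2.90) in MASLD and Aza-TdC. Among transcription factors, Cebpb, of myeloid differentiation, stood at 44.7 CPM, 350.4 CPM and 91.5 CPM, Zeb2, which maintains tissue macrophages, at 894 CPM, 2369.9 CPM and 2929 CPM, and Irf8, of dendritic cells and monocytes, at 626 CPM, 268 CPM and 244 CPM. Cebpb was thus highest in MASLD, Irf8 highest in SD and Zeb2 lowest in SD.

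DNA methylation genes, which include the target of the compound, were at low levels. Dnmt1 had 1 UMI in 1 nucleus, 9 UMIs in 8 nuclei and 2 UMIs in 2 nuclei, too few for a comparison. Dnmt3a, a methyltransferase for unmethylated DNA, stood at 402 CPM (184 to 763), 346 CPM (278 to 427) and 397 CPM (211 to 678), with overlapping intervals. Of 5 measured genes 0 in MASLD against SD and 1 in Aza-TdC against MASLD were at least 1, the latter being Mbd2, a reader of methylated DNA, at 1.41 (0.37 to 2.35). Cell cycle genes summed to 2636 CPM (2007 to 3401) in SD, 1689 CPM (1533 to 1856) in MASLD and 1678 CPM (1264 to 2184) in Aza-TdC, with 1 of 12 at least 1 and 4 at most -1 in MASLD against SD (median -0.50). In Aza-TdC 37 of the 55 cell cycle UMIs lay in 1 nucleus, and the list was found in 4 of 14 members. Top2a, a topoisomerase of dividing cells, was found in 4 of 8, 17 of 91 and 3 of 14 members.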

How the data were processed

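Single-nucleus RNA sequencing (10x Genomics 3' chemistry) was carried out on 3 liver libraries, 1 per group, grouped as the sample labels give them. The authors deposited raw UMI counts for 32285 features in each nucleus, which Cell Ranger 6.1.2 produced, per the file headers. The submitters' processing notes also list Seurat 4.4.0, mm10 and GRCm38, with no step given for them. Neither labels nor headers state the annotation release or how introns, free RNA and doublets were handled.

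Barcodes with at least 500 UMIs and at most 5% mitochondrial UMIs were kept, and members were found by the rule given at the opening. No doublet caller was run and doublets remain. Alternatives left out members whose hepatocyte share was above 0.5 of the median of the remaining nuclei, or that held transcripts of other cells. UMI counts were summed over the nuclei of a set and scaled to CPM. Levels have exact Poisson, shares exact Clopper-Pearson and log2 ratios exact conditional binomial intervals at 95%. A gene was measured with at least 20 UMIs over both sides and counted as past the limit at a log2 ratio of 1 or -1. A level of 0 was set against a floor of 3 counts over the summed set, and a ratio bounded in this way enters a list's median at its bound, or at 0 where the bound is below 1-fold. Such a bound leaves out the counting error of the side with UMIs and is not an interval limit. With 1 library per group no p-value was computed. The statistics were tested on simulated data.

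The members and the 27 gene lists were chosen with earlier results of these data known. Named genes were the rule genes, up to 6 genes of each list by UMIs in members, and for each comparison the 10 genes at either end when ranked on the bound closest to 0, needing 30 UMIs on the higher side, leaving out genes higher in the remaining nuclei, mitochondrial and unnamed transcripts, and, against Clec4f/Cd5l nuclei, rule genes and genes differing in direction between MASLD and Aza-TdC. Genes named only in subgroups of MASLD members, such as Btla, Klri1, Prg4, Saa3 and Cfp, and single list genes outside this rule were chosen after their values were seen. A few of the genes so chosen are left unreported. The work was done in Python 3.11.15 with scipy 1.17.1, numpy 2.4.6, pandas 2.3.3 and matplotlib 3.10.9. Alternatives to the UMI and mitochondrial limits, the rule, the scaling, the minimum count, shared barcodes and free RNA were run singly.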

Additional observations from a re-analysis of the deposited data

Results flagged for a closer look

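Mmp12, the macrophage elastase, had log2 ratios of opposite sign in the MASLD and Aza-TdC libraries when members were set against Clec4f/Cd5l nuclei. The difference between the libraries was not tested. Its log2 ratio was 3.09 in MASLD and -1.08 in Aza-TdC, where the interval, given above, includes no difference. The 144 MASLD member UMIs lay in 10 nuclei, with 56 in 1 of them, and Aza-TdC members held 2 UMIs in 1 nucleus.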

How the results depend on the processing

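No paired analysis was possible because each group was 1 library. With at most 1% mitochondrial UMIs the MASLD share was 0.436%, its ratio to SD 3.89 and that of Aza-TdC to MASLD 0.368, and genes past the limit numbered 531 of 1421 measured (37.4%) in MASLD against SD (1125 of 3585, 31.4%, as reported) and 468 of 1533 (30.5%) in Aza-TdC against MASLD (1086 of 3698, 29.4%). With at least 1500 UMIs per nucleus the MASLD share was 1.03%. Without Cd74 and H2-Ab1 in the rule, shares were 0.0140% in SD and 0.758% in MASLD, the ratios to SD 54.1 and 8.46, and the genes 406 of 1987 (20.4%) and 658 of 2207 (29.8%). Leaving out members high in hepatocyte RNA gave a MASLD share of 1.06%, 685 of 2551 genes (26.9%) in Aza-TdC against MASLD and 297 of 2780 (10.7%) against Clec4f/Cd5l nuclei in both libraries (175 of 3154, 5.55%, as reported). Subtracting hepatocyte RNA gave 306 of 2775 (11.0%) there and turned the split of higher and lower genes in both comparisons between diets and treatment. At a minimum of 50 UMIs the 3 counts were 431 (34.2%), 333 (25.5%) and 72 (6.39%). Leaving out members with at least 2 UMIs of other leukocytes left 0, 11 and 0, shares of 0%, 0.164% and 0% and a ratio of Aza-TdC to MASLD of 0; its lists hold Cadm1, Dpp4, Tcf4 and Bach2, which other cells also carry, and no ratio to SD could be given. An alternative chosen after seeing the data left out class II-led members and gave shares of 0.0140%, 0.461% and 0.0790%, ratios to SD of 32.9 and 5.64, and 196 (17.0%), 460 (33.4%) and 97 (3.98%) genes. Dock4, Aza-TdC against MASLD, turned to -0.064 without Cd74 and H2-Ab1 in the rule. Slpi turned to 1.17 with members high in stellate, mesothelial or T and NK transcripts left out, also chosen after seeing the data. The cause was not tested in any case. Over 80 results for named genes, 855 of 979 alternatives stayed within the interval of the reported value, 122 did not and 2 turned. Over 66 list medians, 650 of 732 stayed and 82 did not. The 8 SD and 14 Aza-TdC nuclei limit every ratio that involves them.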

Other observations

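Haemoglobin transcripts, which erythroid cells supply, were found in members of each library. The erythroid list summed to 89.4 CPM in SD, 457 CPM in MASLD and 275 CPM in Aza-TdC members, against 38.8, 382 and 63.1 CPM in the remaining nuclei. Only in Aza-TdC did the interval of the members (126 to 521 CPM) lie above the level of the remaining nuclei. The list had a UMI in 2 of 8, 58 of 91 and 6 of 14 members.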
